A study of Mus musculus with 4 samples.

Results

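Expression was compared between 3 knockout libraries, each labelled as a knockout of 1 gene of mitochondrial fission, and the 1 library of the parental mouse embryonic stem cell line, and genes were sought that differed from control in the same direction in Dnm1l-/-, Fis1-/- and Mff-/- cells. All 4 samples of the series entered. All 4 are of strain 129/Ola and passages 30 to 35; the knockouts were made in e14tg2a (E14Tg2a) cells, and unedited e14tg2a cells were the control. Cells were grown on mouse embryonic fibroblasts with serum and leukemia inhibitory factor. The sources used here do not say whether each knockout line is a single clone. Each genotype had 1 library, so differences are descriptions with no replicate check and no test. All 3 differences share the control library, so a deviation of that library moves all 3 together and cannot be told apart from a difference shared by the knockouts.

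Mitochondrial fission divides the organelle so that it can be distributed, trimmed and removed. Dnm1l encodes Drp1, the dynamin-related GTPase that constricts the outer membrane. Mff encodes a receptor that recruits Drp1 to that membrane, and Fis1 encodes an outer membrane protein studied in fission and in mitophagy. Embryonic stem cells have small rounded mitochondria, and stress of the organelle is known to act on nuclear genes through the transcription factor ATF4.

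Summed FPKM (fragments per kilobase, scaled to library size) per gene was available for 24111 genes, and the 11050 whose 4 values averaged at least 1 FPKM were compared. The estimated depth was 35300000 fragments in Dnm1l-/-, 36100000 in Fis1-/- and 35800000 in Mff-/- cells, against 37800000 in control. Embryonic stem cell identity was shared by all 4 libraries, since 10 of 10 markers stood at 1 FPKM or more in each, among them Pou5f1 at 913, 808 and 1753 FPKM in Dnm1l-/-, Fis1-/- and Mff-/- cells and 1208 FPKM in control. Transcripts of the targeted genes remained, at 65.4% of control for Dnm1l, 54.6% for Fis1 and 41.0% for Mff in the cognate knockout, and single transcripts ranged from 18.6% to 110% for Dnm1l and from 21.8% to 270.1% for Fis1. The edited part of each gene is not known from the labels. The Y-linked gene Eif2s3y, a subunit of a translation initiation factor, stood at 0.14 FPKM in Dnm1l-/- and 0.08 FPKM in Fis1-/- cells, against 46.8 FPKM in Mff-/- cells and 33.0 FPKM in control. Ddx3y, a Y-linked RNA helicase, had 0.01, 0.02 and 4.17 FPKM in the same knockouts, against 3.59 FPKM in control, and the labels give no karyotype of the lines.

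Few genes agreed in all 3 lines at 2-fold. The difference of a gene was taken as log2(FPKM + 1) in the knockout minus control, which understates the fold of low genes, and the shared difference was the smallest of the 3 where all had 1 sign. In single comparisons, 2.66% of genes were at least 2-fold higher and 2.33% at least 2-fold lower in Dnm1l-/- cells. The shares were 1.91% higher and 2.1% lower in Fis1-/- cells, and 2.83% higher and 3% lower in Mff-/- cells. In all 3 knockouts together, 30 genes (0.271%) were at least 2-fold higher and 17 genes (0.154%) at least 2-fold lower than control. Rescaled to the mean FPKM total, these counts were 22 and 19, and with control at 1 FPKM or more they were 15 and 17. At 1.5-fold, 89 genes (0.805%) were higher and 116 (1.05%) lower, and at any size 1982 (17.9%) were higher and 2432 (22%) lower, while 6636 genes (60.1%) did not share a sign. Without the 608 compared genes on chromosome 8, 30 genes were higher and 15 lower at 2-fold, and 1968 were higher and 2072 lower at any size.

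Of the 47 genes past 2-fold, 11 were RNAs under 200 bases, which are shorter than most fragments of such libraries. Snora31 and Snord15b were among the 30 higher genes, with control listed at 0, and 9 of the 17 lower genes were such RNAs, listed at 0 in all 3 knockouts, led by Snord95 with 647 FPKM in control. The remaining 28 higher and 8 lower genes are the ones described here. The threshold separated close values. On the higher side Cltb lay just inside at 1.001 and Tuba3a just outside at 0.999, and on the lower side Sesn2 lay inside at -1.03 and Nfatc4 outside at -0.94.

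**Figure D1:**
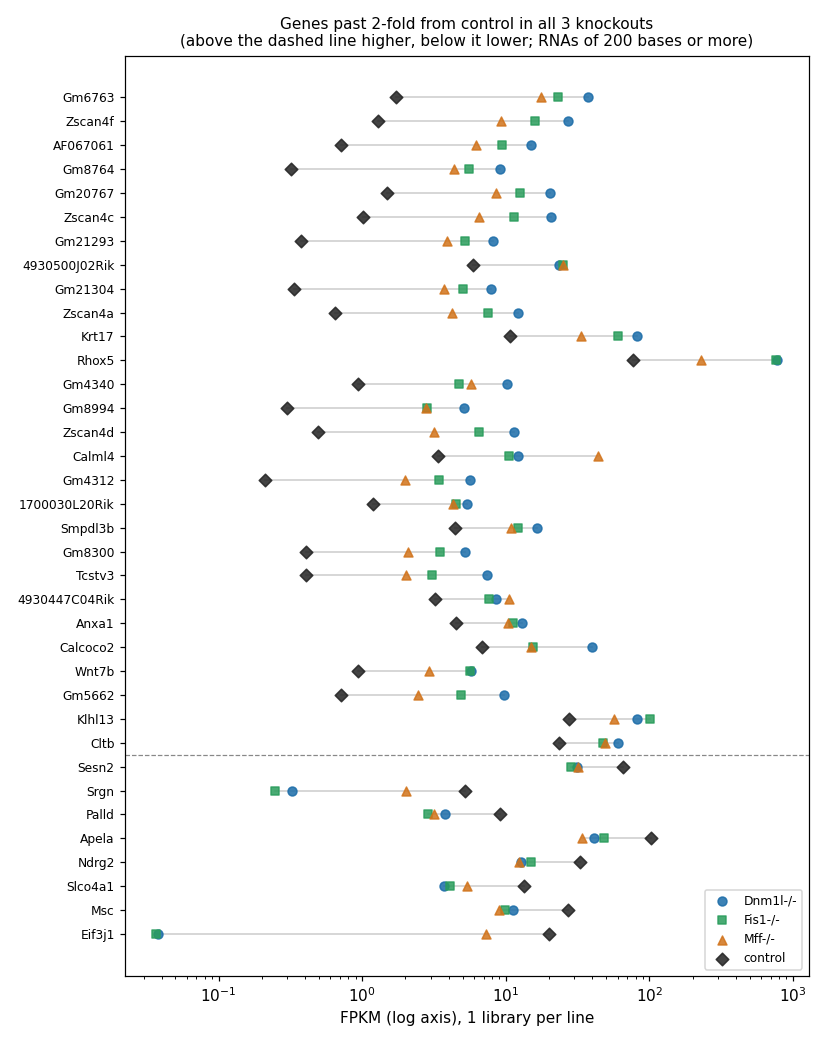
FPKM on a log axis of the 28 genes above and the 8 genes below the dashed line that were at least 2-fold higher or lower than control in all 3 knockouts, without RNAs under 200 bases. Each point is 1 library, and control lies lowest in the 28 higher genes because of how they were selected. The order Dnm1l-/- above Fis1-/- above Mff-/- holds in 22 of them, of which 15 are related copies of 2-cell groups, and in 21.6% of all genes compared.

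Transcripts of the 2-cell stage were many among the shared higher genes, but most entered the comparison through their knockout values. Zscan4 proteins mark a rare, fluctuating state of embryonic stem cells that resembles the 2-cell embryo, in which they are known for telomere lengthening and genome stability, and the Tcstv and Gm8300 groups are transcribed in the same state. Of the 28 higher genes, 14 belong to 4 such multicopy groups, and Gm4312 and Gm8994 are counted with them as 16, with no role given. In 12 of the 16, and in 1 of the other 12 higher genes, control stood below 1 FPKM. With control at 1 FPKM or more, 15 higher genes remained. In bulk RNA, more cells in a state like the 2-cell embryo and more RNA per cell cannot be told apart. The promoters of the copies are shown first, because they are nearly the same sequence. RefSeq promoters of build GRCm38.p6 run from 250 bases before to 50 after the start. Those of Zscan4c (chr7:11005495-11005794, plus strand) and Zscan4f (chr7:11397665-11397964, plus strand) were identical at 275 of 277 aligned bases. Capitals mark the 55-base run that is the longest found unbroken in Zscan4c, Zscan4d and Zscan4f.
Zscan4c: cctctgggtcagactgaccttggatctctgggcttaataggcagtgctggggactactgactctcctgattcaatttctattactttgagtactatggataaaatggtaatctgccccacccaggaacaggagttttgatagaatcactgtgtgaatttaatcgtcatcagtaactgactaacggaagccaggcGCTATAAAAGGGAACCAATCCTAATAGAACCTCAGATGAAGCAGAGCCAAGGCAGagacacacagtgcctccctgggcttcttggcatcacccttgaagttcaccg
Zscan4f: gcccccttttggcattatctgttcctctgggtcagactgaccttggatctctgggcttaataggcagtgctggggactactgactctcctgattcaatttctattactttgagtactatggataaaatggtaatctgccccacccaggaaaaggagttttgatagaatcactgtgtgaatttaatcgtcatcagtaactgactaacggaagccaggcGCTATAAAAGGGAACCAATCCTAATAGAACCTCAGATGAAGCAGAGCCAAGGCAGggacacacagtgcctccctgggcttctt

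The promoter listed for Gm8764 (chr10:104159756-104160055, plus strand, with no part in capitals) was identical over 300 of 300 bases to those of Gm21293 and Gm21304, and at 299 of 300 bases to that of Gm4340. RefSeq places it elsewhere in the cluster than the deposited locus of Gm8764, and the copies repeat along chromosome 10.
Gm8764: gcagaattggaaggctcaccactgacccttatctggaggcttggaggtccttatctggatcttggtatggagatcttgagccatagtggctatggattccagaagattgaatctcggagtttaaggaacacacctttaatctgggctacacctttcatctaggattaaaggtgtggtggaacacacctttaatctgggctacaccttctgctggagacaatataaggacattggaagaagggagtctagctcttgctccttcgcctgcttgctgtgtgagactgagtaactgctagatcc

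Zscan4f (chr7:11397915-11402318) had 27.3 FPKM in Dnm1l-/-, 15.9 FPKM in Fis1-/- and 9.28 FPKM in Mff-/- cells, against 1.296 FPKM in control. Zscan4c (chr7:11005745-11010547) had 20.8, 11.4 and 6.53 FPKM in the same knockouts, against 1.01 FPKM in control. Both genes lay above control in every knockout and descended from Dnm1l-/- to Mff-/- cells. Summed over 5 genes, Zscan4 reached 84.5 FPKM in Dnm1l-/-, 49.6 FPKM in Fis1-/- and 25.4 FPKM in Mff-/- cells, against 4.08 FPKM in control, which is 20.7, 12.2 and 6.23 times the control sum. The Gm4340 cluster of chromosome 10 summed over 5 genes to 72.6, 43.6 and 35.2 FPKM in Dnm1l-/-, Fis1-/- and Mff-/- cells and 3.69 FPKM in control. Every knockout sum lay above that of control, in the same order as for the single Zscan4 genes. For the 3 Tcstv genes of chromosome 13 the sums were 42.6, 25.1 and 16.8 FPKM in the knockouts and 2.60 FPKM in control. The Gm8300 cluster of chromosome 12, 4 genes, summed to 30.7, 17.5 and 9.06 FPKM in the knockouts and 2.45 FPKM in control.

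The order Dnm1l-/- above Fis1-/- above Mff-/- held in 15 of 16 of these copies, which share reads and are not independent. It held in 7 of the other 12 higher genes and in 29 of 58 genes higher by 1.5-fold to 2-fold, and in 21.6% of all genes compared. Gm4340 was the exception, with 10.2 FPKM in Dnm1l-/-, 4.69 FPKM in Fis1-/- and 5.69 FPKM in Mff-/- cells and 0.94 FPKM in control. Control stood below 1 FPKM in 12 of the 16, so many entered the comparison through their knockout values. Without any filter, 21 of the 22 listed genes of the 2-cell-like state were higher in all 3 knockouts and 0 were lower, and control reached 1 FPKM in 3 of them. Over all 24111 genes with no filter, 3386 were higher and 4404 lower, and 4907 were listed at 0 in all 4 libraries. Reads of near-identical copies can be divided among them arbitrarily. In GENCODE transcripts, 16 of 35 named genes shared 10% or more of their 100-base windows with another gene, 14 of them higher genes, so sums are given beside single copies. Estimated fragments in control fell to 7.28 for the least covered copy, Gm4312.

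Rhox5 had the highest FPKM of the genes past 2-fold in the higher direction. It is an X-linked homeobox gene of the reproductive cluster whose promoters are known targets of DNA methylation. Its level was 779 FPKM in Dnm1l-/-, 764 FPKM in Fis1-/- and 228 FPKM in Mff-/- cells, against 76.8 FPKM in control, and its differences were 3.33, 3.30 and 1.56. Its relative Rhox9 had 36.0, 24.5 and 5.33 FPKM in the 3 knockouts, against 4.23 FPKM in control. Rhox9 in Mff-/- cells thus stood close to control while in the other knockouts it did not. Of 4 Rhox genes compared, 3 were higher in all 3 knockouts and 0 lower, but Rhox1, at 0.07 FPKM in control, entered through its knockout values. With no filter, 6 of 13 listed Rhox genes were higher, 0 were lower and 3 were listed at 0 in all 4 libraries. Over all genes in the same setting, 3386 of 24111 were higher and 4404 lower.

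Genes of germ cells that embryonic stem cells silence by DNA methylation leaned the same way, less so in Mff-/- cells. Their median differences were 0.87 in Dnm1l-/-, 0.73 in Fis1-/- and 0.25 in Mff-/- cells. Of 15 compared, 7 were higher in all 3 knockouts and 0 lower, beside 17.9% and 22% of all genes, and 3 passed 1.5-fold. Some of the 7, such as Fkbp6, entered through their knockout values. With no filter 13 of 32 were higher and 1 was lower, beside 3386 and 4404 of all 24111 genes. Of the genes compared without chromosomes 6 and 8, 5 of 13 were higher and 0 lower. Dazl, Ddx4, Sycp1, Sycp3, Smc1b and Fmr1nb lay below control in Mff-/- cells, Fmr1nb at 1.49 against 5.28 FPKM. Tuba3a, a testis tubulin, had 22.6 FPKM in Dnm1l-/-, 13.7 FPKM in Fis1-/- and 6.9997 FPKM in Mff-/- cells, against 3.002 FPKM in control. Mael, which protects the germ line from transposons, had 6.10, 5.23 and 7.75 FPKM in these knockouts, against 2.75 FPKM in control. Fkbp6, a chaperone partner of spermatogenesis, had 1.07, 1.33 and 1.49 FPKM in the knockouts, against 0.13 FPKM in control. All 3 genes lay above control in each knockout, with Mael and Fkbp6 highest in Mff-/- cells and Tuba3a lowest there. Of 8 genes that add, maintain or remove DNA methylation, 1 was higher and 4 were lower in all 3. The lower ones had small shared differences, -0.19 in Dnmt3l, -0.05 in Dnmt3a, -0.035 in Dnmt1 and -0.004 in the demethylase Tet1. Dnmt3b did not share a sign, at 17.5, 20.3 and 62.5 FPKM in the knockouts, against 31.0 FPKM in control. Dnmt3l, the cofactor of the de novo enzymes, had 100.3 FPKM in Dnm1l-/-, 125 FPKM in Fis1-/- and 136 FPKM in Mff-/- cells, against 155 FPKM in control, and Uhrf1, which brings the maintenance enzyme to DNA, had 120, 119 and 125 FPKM in the knockouts, against 106 FPKM in control.

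The remaining 12 higher genes had varied functions, and 7 of them kept the order Dnm1l-/-, Fis1-/-, Mff-/-. Krt17, a keratin, had 81.5 FPKM in Dnm1l-/-, 60.3 FPKM in Fis1-/- and 33.5 FPKM in Mff-/- cells, against 10.7 FPKM in control. Calcoco2, known in human cells as the autophagy receptor NDP52, had 39.8, 15.4 and 15.1 FPKM in the knockouts, against 6.88 FPKM in control. Each knockout was thus above control, Dnm1l-/- by the widest margin. Calml4, a calmodulin-like protein, ran the other way, with 12.1 FPKM in Dnm1l-/-, 10.6 FPKM in Fis1-/- and 44.2 FPKM in Mff-/- cells, against 3.38 FPKM in control. Wnt7b, a Wnt ligand, had 5.69, 5.66 and 2.93 FPKM in the knockouts, against 0.93 FPKM in control. Klhl13, a Cullin 3 adaptor, and Cltb, a light chain of clathrin, lay nearest to 2-fold. The noncoding gene 4930500J02Rik was alike in the knockouts at 23.5, 24.9 and 25.2 FPKM, against 5.92 FPKM in control. Anxa1, an annexin that binds phospholipids, and Smpdl3b, a membrane lipid phosphodiesterase, had shared differences of 1.04 and 1.14.

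The 8 lower genes had varied functions, and only Sesn2 belonged to a list. Sesn2 (chr4:132492807-132510456), the stress-induced sestrin that restrains mTORC1, had 31.3 FPKM in Dnm1l-/-, 28.6 FPKM in Fis1-/- and 31.7 FPKM in Mff-/- cells, against 65.7 FPKM in control. Msc, a basic helix-loop-helix repressor, had 11.2, 9.79 and 9.03 FPKM in the knockouts, against 27.2 FPKM in control. The 3 knockouts lay close together in both genes. Ndrg2, of the NDRG family, had 12.7, 14.9 and 12.4 FPKM, against 32.9 FPKM in control. Slco4a1, an organic anion transporter, had 3.70, 4.09 and 5.35 FPKM in the knockouts, against 13.4 FPKM in control. Srgn, the proteoglycan serglycin, differed more between the knockouts, at 0.32 and 0.25 FPKM in Dnm1l-/- and Fis1-/- cells and 2.03 FPKM in Mff-/- cells, against 5.19 FPKM in control. Apela, the peptide ligand of the apelin receptor, and Palld, the actin-associated palladin, lie on chromosome 8, with shared differences of -1.08 and -1.07. Eif3j1, a copy of a translation initiation factor subunit, stood at 0.04, 0.04 and 7.24 FPKM in Dnm1l-/-, Fis1-/- and Mff-/- cells, against 20.1 FPKM in control. Eif3j2 is listed at nearly the same locus, chr2:122028583-122053631 against chr2:122028580-122053632 for Eif3j1. It had 47.6, 51.3 and 54.8 FPKM in these knockouts, against 25.3 FPKM in control. The sum of the pair was 47.7, 51.3 and 62.1 FPKM in the knockouts and 45.4 FPKM in control, so the pair as a whole was not lower.

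**Figure D2:**
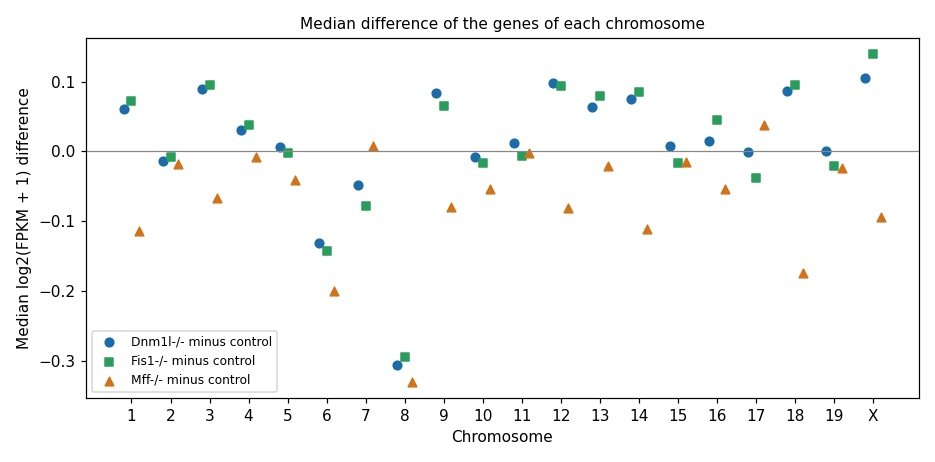
Median log2(FPKM + 1) difference, knockout minus control, of the genes compared on each autosome and on X, with 1 point for each knockout and chromosome Y not drawn. Of the chromosomes drawn, chromosome 8 lies lowest in all 3 knockouts, at -0.31, -0.29 and -0.33, and chromosome 6 second.

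Chromosome 8 carried 360 of the 2432 genes that were lower in all 3 knockouts. Of its 608 genes compared, 59.2% were lower in all 3 and 14 genes were higher, while the share lower ranged from 14.4% to 23.5% over the 17 autosomes other than chromosomes 6 and 8. All 13 windows of 10 Mb along it had medians below 0 in each knockout. Among its 321 genes with a mean of 10 FPKM or more, the median ratio to control was 0.776 in Dnm1l-/-, 0.780 in Fis1-/- and 0.790 in Mff-/- cells. Members include Jund, a subunit of AP-1, with 31.7 FPKM in Dnm1l-/-, 27.1 FPKM in Fis1-/- and 23.9 FPKM in Mff-/- cells, against 61.0 FPKM in control. Atp6v0d1, a subunit of the vacuolar proton pump, had 65.5, 68.5 and 60.8 FPKM in the knockouts, against 115 FPKM in control. Spg7, a protease of the inner mitochondrial membrane, had 15.5, 16.6 and 16.8 FPKM, against 25.9 FPKM in control. The 3 genes were lower in every knockout. From FPKM, a difference in the number of copies of chromosome regions between the control and knockout lines and a lower level per copy cannot be told apart.

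A segment of chromosome 6 had the same direction. Between 80 and 120 Mb, 101 of 171 genes compared were lower in all 3 knockouts and 5 were higher, with medians of -0.48, -0.43 and -0.31. From 80 to 150 Mb, 6 of 7 windows had medians below 0 in all 3 knockouts, and 147 of 306 genes were lower. The window from 90 to 100 Mb had 25 of 32 genes lower and 0 higher. The proximal 70 Mb differed, with 40 of 157 genes higher and 17 lower in all 3. Ldhb, the lactate dehydrogenase subunit that favours pyruvate formation, was the most abundant of the chromosome 6 genes lower by 1.5-fold, and lies beyond 120 Mb (chr6:142490249-142507957). It had 240 FPKM in Dnm1l-/-, 388 FPKM in Fis1-/- and 149 FPKM in Mff-/- cells, against 712 FPKM in control. Suclg2, a subunit of succinyl-CoA ligase, had 22.2, 22.6 and 16.3 FPKM in the knockouts, against 37.1 FPKM in control, and Mcm2, of the replicative helicase, had 73.3, 77.6 and 92.0 FPKM, against 132 FPKM in control. Together, chromosomes 8 and 6 held 21 and 20 of the 116 genes lower by 1.5-fold. Without both chromosomes, 84 genes were higher and 75 lower at 1.5-fold, and at any size 1903 were higher and 1900 lower of 9947.

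**Figure D3:**
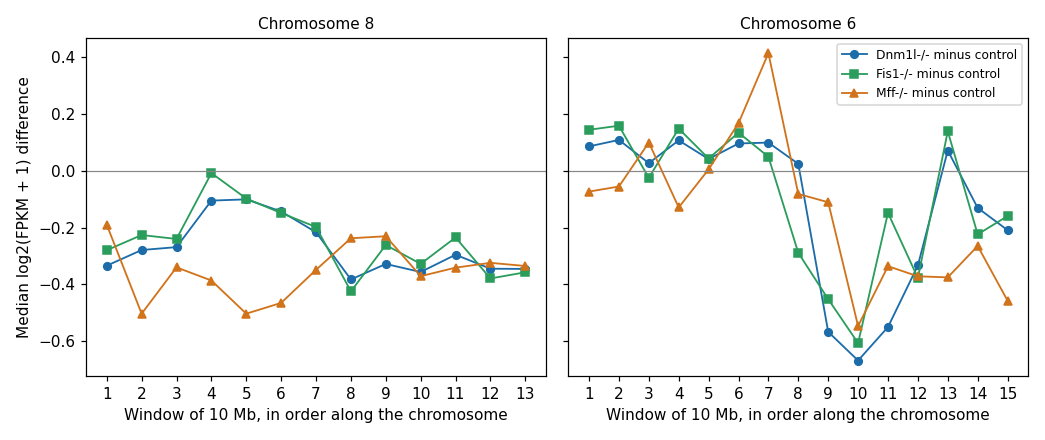
Median log2(FPKM + 1) difference, knockout minus control, of the genes in each window of 10 Mb, numbered in order along chromosome 8 (left) and chromosome 6 (right). All windows of chromosome 8 lie below 0, and on chromosome 6 windows 9 to 12, from 80 to 120 Mb, and windows 14 and 15 lie below 0 in all 3 knockouts.

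Functions were then read as counts of listed genes that were higher or lower than control in all 3 knockouts, beside 17.9% higher and 22% lower among all genes. Most lists had a median shared difference of 0, as had all genes compared, since most of their genes did not share a sign. Endoplasmic reticulum chaperones leaned higher, with 12 of 23 higher in all 3 knockouts and 3 lower, and 12 and 1 of 21 without chromosome 8. Most of these differences were small, with a median shared difference of 0.0007 and 1 gene, Pdia4 on chromosome 6, past 1.5-fold. Without chromosomes 6 and 8, 11 of 19 were higher and 0 lower, and 0 passed 1.5-fold. Pdia4, a disulfide isomerase, had 70.7 FPKM in Dnm1l-/-, 68.4 FPKM in Fis1-/- and 64.9 FPKM in Mff-/- cells, against 41.7 FPKM in control. Hspa5, the chaperone BiP, had 249, 272 and 238 FPKM in these knockouts, against 193 FPKM in control. In both genes the knockouts were close to each other and above control. Herpud1, a factor of endoplasmic reticulum degradation on chromosome 8, had 6.38, 6.81 and 25.4 FPKM in the knockouts, against 34.6 FPKM in control, and was lower.

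Antioxidant genes, many of them targets of NRF2, were higher in 10 of 29 and lower in 0, and in 10 of 25 without chromosome 8. Gss, glutathione synthetase, had 37.3 FPKM in Dnm1l-/-, 29.8 FPKM in Fis1-/- and 20.3 FPKM in Mff-/- cells, against 11.6 FPKM in control. Nfe2l2, which encodes NRF2, had 43.8, 35.4 and 21.4 FPKM in the knockouts, against 17.1 FPKM in control. Sod2, the superoxide dismutase of the mitochondrial matrix, had 54.3, 46.9 and 38.1 FPKM, against 32.5 FPKM in control. These 3 genes followed the order of the knockouts seen for Zscan4. Gsta4, a glutathione transferase, did not, at 453, 460 and 461 FPKM in the knockouts, against 333 FPKM in control. Interferon response genes had 6 of 24 higher and 0 lower, with 0.18 in Stat2 the largest shared difference. They include Irf7, a regulator of interferon genes, at 19.4, 13.2 and 7.69 FPKM in the knockouts and 7.47 FPKM in control.

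**Figure D4:**
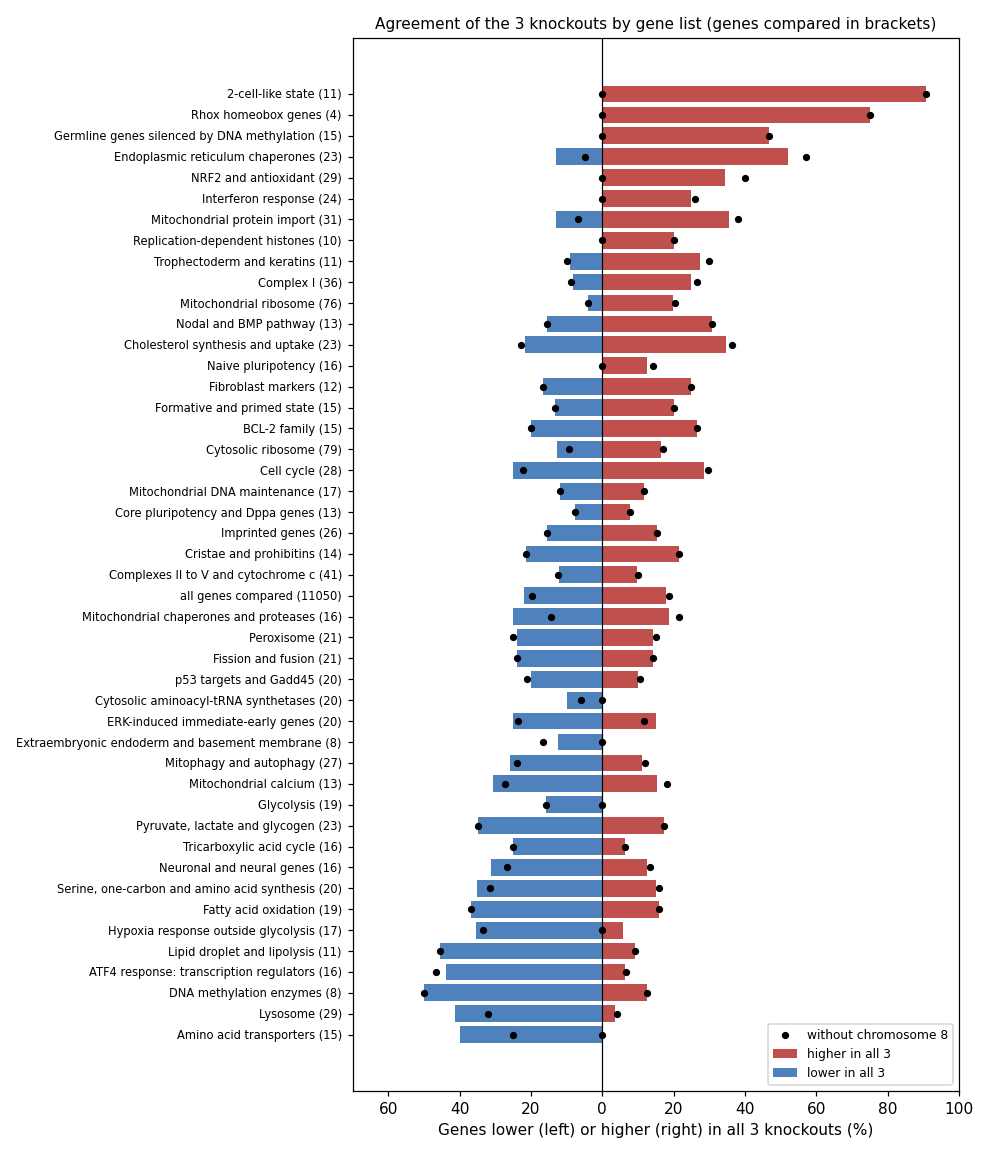
Percent of the genes compared of each list that were higher (right) or lower (left) than control in all 3 knockouts, for lists with 4 or more genes compared. Black points give the shares without chromosome 8, where the lower share of lysosome genes and amino acid transporters is smaller and that of the 2-cell-like state is the same.

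Lysosomal genes leaned lower, most so in Mff-/- cells, with 12 of 29 lower in all 3 knockouts and 1 higher. Their median differences were -0.02 in Dnm1l-/-, -0.15 in Fis1-/- and -0.33 in Mff-/- cells. Without chromosome 8, 8 of 25 were lower, beside 19.8% of all genes, and 0 passed 1.5-fold. The medians were then 0.03, -0.05 and -0.28 in the same knockouts. Ctsl, the cysteine protease cathepsin L on chromosome 13, had 113 FPKM in Dnm1l-/-, 132 FPKM in Fis1-/- and 77.2 FPKM in Mff-/- cells, against 171 FPKM in control. Lamp1, a membrane protein of the lysosome on chromosome 8, had 233, 226 and 158 FPKM in the knockouts, against 296 FPKM in control. Both genes were lowest in Mff-/- cells. Among mitophagy and autophagy genes 3 of 27 were higher and 7 lower, shares near the background, with Calcoco2 highest and Optn, an autophagy receptor, lowest. Optn had 3.57, 3.66 and 2.52 FPKM in the knockouts, against 7.82 FPKM in control.

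In fuel metabolism, single genes were lower in all 3 knockouts. Glycolysis had 3 of 19 lower, below the background, and 0 higher, and the tricarboxylic acid cycle had 4 of 16 lower, near it, and 1 higher. The glycolysis genes include Pfkl, phosphofructokinase of the liver type, at 122, 133 and 98.0 FPKM in Dnm1l-/-, Fis1-/- and Mff-/- cells and 179 FPKM in control. Pyruvate, lactate and glycogen genes had 8 of 23 lower and 4 higher. Pcx, pyruvate carboxylase, had 11.98 FPKM in Dnm1l-/-, 14.3 FPKM in Fis1-/- and 5.44 FPKM in Mff-/- cells, against 23.9 FPKM in control. Pcx was lowest in Mff-/- cells, as Ldhb was. Fatty acid oxidation had 7 of 19 lower and 3 higher, and lipid droplet genes 5 of 11 lower and 1 higher, the higher one being Dgat2, a triglyceride synthase, at 2.63, 1.84 and 3.17 FPKM in the knockouts and 0.95 FPKM in control. Hypoxia response genes outside glycolysis had 6 of 17 lower and 1 higher, but 3 of 12 lower and 0 higher without chromosomes 6 and 8.

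Most lists of the mitochondrial machinery itself had shares near or below those of all genes, 17.9% higher and 22% lower. The higher share lay furthest above the background in protein import, at 35.5%. Mitochondrial chaperones and proteases had 3 of 16 higher and 4 lower, and 1 of them, Spg7 on chromosome 8, was lower by more than 1.5-fold in all 3 knockouts. Mitochondrial calcium genes had 2 of 13 higher and 4 lower. No gene of the other lists in this paragraph passed 1.5-fold in all 3 knockouts. The fission and fusion list had 3 of 21 genes higher and 5 lower, and its sum was 474 FPKM in Dnm1l-/-, 449 FPKM in Fis1-/- and 494 FPKM in Mff-/- cells, against 503.6 FPKM in control. Without the 3 targeted genes the sum was 326, 323 and 329 FPKM in these knockouts, against 337 FPKM in control. March5, the ubiquitin ligase of the outer membrane, had 38.4, 37.7 and 43.6 FPKM in the knockouts, against 56.1 FPKM in control. Mief2, an adaptor that recruits Drp1, had 6.22, 5.27 and 4.90 FPKM in the knockouts, against 4.59 FPKM in control. Mitochondrial ribosome genes had 15 of 76 higher and 3 lower, of which the higher share is near the background, and complex I had 9 of 36 higher and 3 lower. Complexes II to V had 4 of 41 higher and 5 lower, cristae genes 3 of 14 in each direction and mitochondrial DNA maintenance 2 of 17 in each direction. Protein import had 11 of 31 higher and 4 lower, and 11 and 2 of 29 without chromosome 8. The medians of the ribosome, complex I, complexes II to V and import lists were 0.52, 0.46, 0.56 and 0.45 in Mff-/- cells, while in Dnm1l-/- and Fis1-/- cells they lay between -0.14 and -0.01. Ndufb4, an accessory subunit of complex I, had 291, 268 and 299.5 FPKM in the knockouts, against 215 FPKM in control, and Ndufa9, another one on chromosome 6, had 88.4, 83.5 and 84.999 FPKM, against 119 FPKM in control.

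Genes listed for the response of ATF4, the transcription factor of the integrated stress response, showed where the 3 lines parted. ATF4 is known to induce regulators, amino acid synthesis, transporters and tRNA synthetases when mitochondria or protein folding are disturbed. Among 16 regulators of the response, 7 were lower in all 3 knockouts and 1 was higher, and the medians were -1.06 in Dnm1l-/-, -1.17 in Fis1-/- and 0.05 in Mff-/- cells. The 1 that was higher was Atf4 itself, with 190, 151 and 199 FPKM in the knockouts and 133 FPKM in control. The lower ones agreed in direction with different sizes. Atf3, a stress-induced repressor, had 2.49 FPKM in Dnm1l-/-, 2.20 FPKM in Fis1-/- and 6.19 FPKM in Mff-/- cells, against 11.6 FPKM in control. Ppp1r15a, the GADD34 subunit that ends the response by dephosphorylating eIF2 alpha, had 33.4, 37.6 and 32.7 FPKM, against 62.3 FPKM in control. Sesn2 and Ppp1r15a were alike in the 3 knockouts, and Atf3 was nearer to control in Mff-/- cells.

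Serine, one-carbon and amino acid synthesis had 7 of 20 genes lower and 3 higher, with medians of -0.51 in Dnm1l-/-, -0.76 in Fis1-/- and 0.13 in Mff-/- cells. Cbs, which makes cystathionine, had 7.93, 7.85 and 13.7 FPKM in the knockouts, against 16.1 FPKM in control. Amino acid transporters had 6 of 15 lower and 0 higher, but 3 of 12 lower without chromosome 8. Slc7a11, the cystine importer, had 1.06, 0.96 and 1.08 FPKM in the knockouts, against 1.84 FPKM in control. Slc7a5, a neutral amino acid transporter on chromosome 8, had 41.2, 37.5 and 73.9 FPKM, against 81.9 FPKM in control. Mff-/- cells were thus near control for Cbs and Slc7a5 and not for Slc7a11. Of 20 cytosolic tRNA synthetases 2 were lower and 0 higher, Aars on chromosome 8 and Iars.

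**Figure D5:**
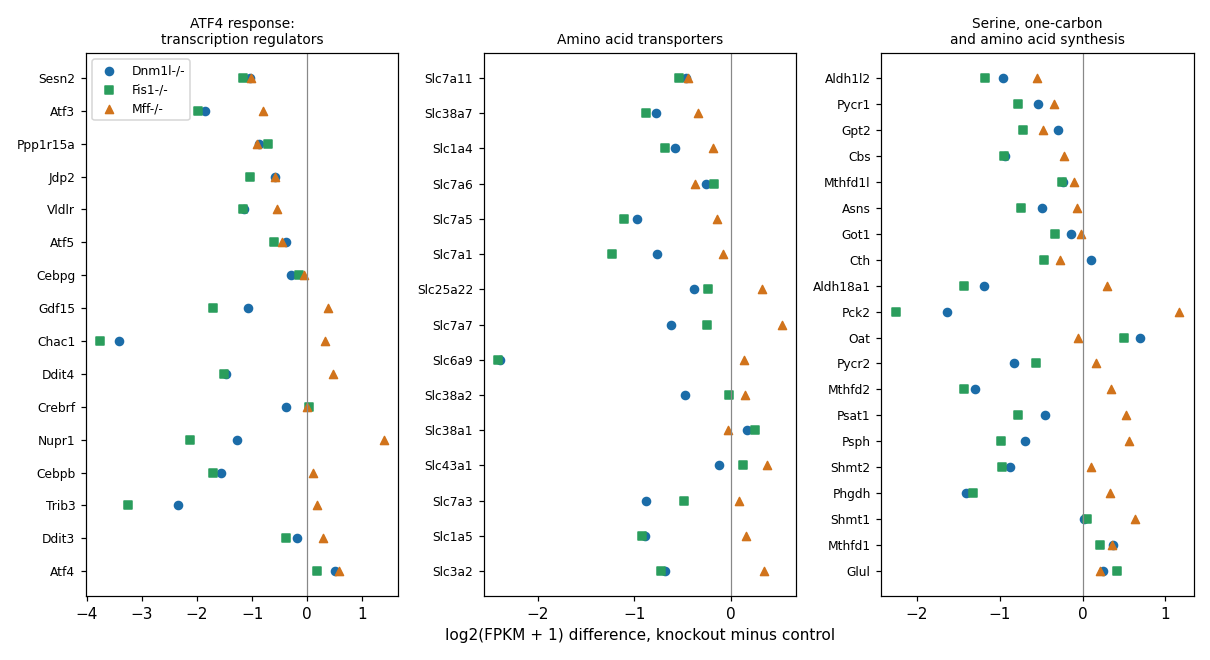
Log2(FPKM + 1) differences, knockout minus control, of the genes compared in 3 lists of the ATF4 response, with 1 point for each knockout. Points of Dnm1l-/- and Fis1-/- cells lie mostly left of 0, and those of Mff-/- cells scatter about 0, with Sesn2, Atf3 and Ppp1r15a left of 0 in all 3.

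Promoters of these genes were searched for the ATF4 and C/EBP element TGATGNAA and the cyclic AMP response element TGACGTCA, on both strands, in RefSeq windows of build GRCm38.p6. Matches of both motifs may share bases and were counted separately. The first was in 4.51% of 27025 genes with a promoter given and in 2.72% of the genes compared, and the second in 2.03% and 3.96%. Of genes with a promoter, 7 of 59 higher by 1.5-fold in all 3 knockouts held the first, and 6 of 83 lower ones. Over the 4 lists of the ATF4 response, 10 of 20 genes lower in all 3 knockouts that had a promoter held the ATF4 element and 1 of 20 held the cyclic AMP response element. The ATF4 element was in 4 of 15 genes of these lists that were lower by 1.5-fold in Dnm1l-/- and Fis1-/- cells and not lower in Mff-/- cells. Among the regulators alone it was in 3 of 7 lower in all 3 knockouts and in 3 of 9 that were not. The lists were chosen for the ATF4 response and hold Atf4 itself beside known targets, so this describes the listed genes and is no test of binding. The promoters of 2 regulators that were lower in all 3 knockouts are printed with the match in capitals, the ATF4 element read on the opposite strand in Atf3 (chr1:191183284-191183583, minus strand) and the cyclic AMP response element in Ppp1r15a (chr7:45526219-45526518, minus strand).
Atf3: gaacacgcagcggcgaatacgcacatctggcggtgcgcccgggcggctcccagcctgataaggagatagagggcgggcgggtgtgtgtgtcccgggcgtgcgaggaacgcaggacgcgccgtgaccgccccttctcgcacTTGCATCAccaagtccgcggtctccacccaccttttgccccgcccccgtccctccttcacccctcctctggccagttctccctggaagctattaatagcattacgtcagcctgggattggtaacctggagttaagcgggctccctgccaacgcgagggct
Ppp1r15a: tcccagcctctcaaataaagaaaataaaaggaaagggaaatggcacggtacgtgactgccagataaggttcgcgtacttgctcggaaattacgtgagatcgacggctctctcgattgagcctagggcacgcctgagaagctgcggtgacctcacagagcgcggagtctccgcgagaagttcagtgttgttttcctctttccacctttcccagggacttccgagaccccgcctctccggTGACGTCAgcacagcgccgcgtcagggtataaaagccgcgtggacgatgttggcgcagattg

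Few pluripotency genes agreed. Of 16 naive pluripotency genes 2 were higher in all 3 knockouts and 0 lower, with Prdm14, a repressor of differentiation, at 8.15 FPKM in Dnm1l-/-, 6.10 FPKM in Fis1-/- and 4.997 FPKM in Mff-/- cells, against 4.06 FPKM in control. Of 13 core and Dppa genes 1 was higher and 1 lower. Some markers of other cell types were also detected. Fibroblast markers, which the feeder layer would supply, had 6 of 12 at a mean of 1 FPKM or more and summed to 119, 149 and 186 FPKM in Dnm1l-/-, Fis1-/- and Mff-/- cells and 191 FPKM in control, and without Vim, which stem cells also express, to 28.7, 30.2 and 39.5 FPKM in the knockouts and 21.4 FPKM in control. Of that sum without Vim, Tagln gave 18.1, 18.7 and 13.1 FPKM in the knockouts and 10.3 FPKM in control. Col1a1, Col1a2 and Thy1 lay below control in Dnm1l-/- and Fis1-/- cells and above it in Mff-/- cells. Of the 6 fibroblast markers at that mean, 2 were higher in all 3 knockouts and 1 was lower. The part of fibroblast markers in the shared differences was not tested. Trophoblast markers had 3 of 7 at a mean of 1 FPKM or more and summed to 72.8 FPKM in Dnm1l-/-, 29.5 FPKM in Fis1-/- and 29.8 FPKM in Mff-/- cells, against 21.0 FPKM in control, most of it Krt8 and Krt18. Eomes had 3.68, 3.66 and 1.66 FPKM in the knockouts, against 1.83 FPKM in control, and Gata3 had 1.03, 0.52 and 0.43 FPKM, against 0.23 FPKM in control, while Cdx2 and Elf5 stayed below 1 FPKM in all 4 libraries. Primitive endoderm markers had 1 of 6 at that mean and summed to 2.37, 1.53 and 2.82 FPKM in the knockouts and 4.23 FPKM in control.

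Composition of the transcripts moved with the differences. Across 10496 genes with a GENCODE transcript, which share libraries and depth, the Spearman correlation of the shared difference with GC content was -0.18 and with length -0.17. The difference in single knockouts had correlations with GC of -0.31 in Dnm1l-/-, -0.37 in Fis1-/- and 0.13 in Mff-/- cells, and with length of 0.05, 0.16 and -0.44. The median GC content was 49.2% in genes higher by 1.5-fold in all 3 knockouts, 53.9% in those lower and 49.9% in all. The part of composition in the shared differences was not tested.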

How the data were processed

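The authors deposited 1 table of FPKM for 33818 RefSeq transcripts, with a column for each library. The submitters' processing notes name StringTie 1.3.3b, STAR 2.5.2b, FastQC 0.11.5, R 3.6.1 and build mm10. Libraries were made with TruSeq kits, per the labels' protocols; only the design text calls them stranded, and whether counting used strand is not stated there. FPKM were summed per gene symbol; of 565 transcripts without a symbol 552 were named by gene identifier. Depth was estimated from the worth of 1 fragment in low single-transcript genes of 3000 bases or more. With 3 libraries against 1, the smallest permutation p is 0.25, so no test was made. Positions were counted from 1.

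The naming rule covers the 15 largest shared differences on each side, list members past 2-fold, genes at the threshold and the targeted genes. Some of these, among them Gm6763, AF067061, Gm20767, Zscan4a and most short RNAs, entered only counts and sums. The other genes named, including the remaining genes past 2-fold and the list examples, were chosen after their values were seen, as was the placing of Gm4312 and Gm8994 with the 2-cell groups. The comparison and the 46 lists were chosen with earlier results of these data known. The selection rule was tested on simulated data. Python 3.11.15, pandas 2.3.3, numpy 2.4.6, scipy 1.17.1, Biopython 1.88 and matplotlib 3.10.9 were used.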

Additional observations from a re-analysis of the deposited data

How the results depend on the processing

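The count of genes at least 2-fold higher in all 3 knockouts, 30, was 15 with control at 1 FPKM or more, 19 with a pseudocount of 2 FPKM and 89 at 1.5-fold. The count of lower genes, 17, was 10 with a mean of 5 FPKM or more, 8 in protein-coding genes, 116 at 1.5-fold and, in an alternative chosen after seeing the data, 8 without RNAs under 200 bases. Leaving out 1 line at a time gave 36 to 174 higher and 24 to 167 lower genes; the top values, 174 and 167, came without Mff-/-; the cause was not tested. Of the calls, 63.8% were higher, against 53.7% after rescaling to the mean FPKM total, 46.9% with control at 1 FPKM or more and 43.4% at 1.5-fold. Rescaling moved the median of Mff-/- by -0.15. After it 10.3% of antioxidant and 8.33% of interferon response genes were lower in all 3 knockouts, against 0 of each before. Of 48 single genes named by the rule, 13 left their side of 2-fold with a pseudocount of 2 FPKM, 8 after rescaling and 3 after centring on the median; the other settings mostly remove genes or lines and cannot lower a gene's smallest difference. Of list shares, 1317 stayed within the 95% exact binomial interval of the main share and 63 did not. That interval treats genes of the same libraries as independent, and the settings reuse the same values. Staying within it is therefore a description and no check of the shares. No paired analysis was possible because each group has 1 library and no label pairs libraries. Depth limits copies with few fragments in control, and 1 library per line leaves the spread between cultures unmeasured.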

Other observations

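Imprinted genes, expressed from 1 parental copy, were split, with 4 of 26 higher and 4 lower than control in all 3 knockouts. Peg10, a retrotransposon-derived gene, had 138 FPKM in Dnm1l-/-, 119 FPKM in Fis1-/- and 54.3 FPKM in Mff-/- cells, against 45.5 FPKM in control. Mest, a paternally expressed hydrolase-like gene, had 0.91, 2.61 and 25.1 FPKM in the knockouts, against 27.2 FPKM in control. In both genes Mff-/- cells stood near control while Dnm1l-/- and Fis1-/- cells did not. The noncoding RNA Rian had 9.24, 16.7 and 41.0 FPKM in the knockouts, against 45.9 FPKM in control.

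Cholesterol genes had 8 of 23 higher and 5 lower in all 3 knockouts. The cell cycle list had 8 of 28 higher and 7 lower, the BCL-2 family 4 of 15 higher and 3 lower, and p53 targets 2 of 20 higher and 4 lower. Pmaip1, the BH3-only protein Noxa, had 3.57 FPKM in Dnm1l-/-, 4.08 FPKM in Fis1-/- and 2.61 FPKM in Mff-/- cells, against 6.92 FPKM in control. Neuronal and neural genes had 2 of 16 higher and 5 lower, among them Nes, an intermediate filament of neural progenitors, at 0.997, 1.38 and 1.62 FPKM in the knockouts and 2.94 FPKM in control. These genes were named after their values were seen.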
